A study of Mus musculus with 3 samples.

Results

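The Toll-like receptor repertoire of macrophages was read here as the 10 genes Tlr1, Tlr2, Tlr3, Tlr4, Tlr5, Tlr6, Tlr7, Tlr8, Tlr9 and Tlr13, matched by gene symbol in the GENCODE M21 annotation. They are 10 of 55536 annotated genes and have 38 annotated transcripts. The cells were macrophages, phagocytes of innate immunity, derived from bone marrow of mice of the inbred strain C57BL/6J, and the RNA measured was that of their cytosol. All cells had been exposed to 100 ng/ml lipid A for 120 min, and 1 µg of RNA per library was depleted of ribosomal RNA and sequenced. The labels describe 1 group of 3 libraries, biological replicates 1, 2 and 3, all with this treatment, time and fraction and with no genetic change named. Every level below is therefore a level after lipid A in the cytosol, and a change by lipid A was not measured. A single donor identifier is given for all replicates, with no age or sex, and the labels do not say whether separate animals were used, so the SD over 3 libraries may be technical in part.

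Toll-like receptors are membrane proteins whose leucine-rich repeats bind microbial molecules and whose cytoplasmic TIR domain recruits adaptor proteins that lead to NF-kB and interferon responses. One set sits at the cell surface and reads bacterial lipids, lipoproteins and flagellin, while another sits in endosomes and reads nucleic acids. Lipid A, the membrane anchor of lipopolysaccharide, is the ligand of TLR4 with its co-receptor MD-2. TLR2 reads lipoproteins as a dimer with TLR1 or TLR6.

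Depth, as the sum of expected counts over a gene table, was 31152786 in replicate 1, 114031592 in replicate 2 and 59693298 in replicate 3, so replicate 2 is the deepest library and replicate 1 the shallowest. Levels are given as TPM, which divide a gene's estimated reads by its length, are scaled to the same sum in every library and can be compared between genes. Nuclear-encoded protein-coding genes took 23.5%, 21.1% and 22.0% of TPM in replicates 1 to 3, and the short 7SL RNA 56.9%, 67.0% and 57.3%, so the TPM of every receptor is measured against a total that 7SL dominates. Mitochondrial transcripts took 1.80%, 0.376% and 1.41% of TPM, lowest in replicate 2. The cell type on the labels was checked against marker genes. The 7 macrophage markers Adgre1, Csf1r, Cd68, Lyz2, Itgam, Mertk and Fcgr1 were all detected, meaning at least 1 TPM in every library, and summed to 4783 to 5416 TPM per library. The sums were 0.4 to 0.5 TPM for 5 B cell markers, 0 to 0.0400 for 4 T cell markers, 0 to 0.0300 for 3 natural killer markers, 0.900 to 1.36 for 5 conventional dendritic markers, 0.0600 to 0.140 for 5 stromal markers and 0.390 to 0.450 for 4 epithelial and endothelial markers. Of 4 plasmacytoid dendritic markers, with a sum of 15.2 to 18.0 TPM, Tcf4 alone was detected, and of 6 neutrophil markers, with a sum of 19.2 to 25.4 TPM, S100a8 and S100a9 were. Cd3d, Prf1, Ly6g, Epcam and Krt18 were listed at 0 in every library. In RNA from many cells, fewer cells carrying a receptor and less receptor RNA per cell cannot be told apart.

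The repertoire was uneven. Tlr2 stood above all other receptors at 229 ± 5.83 TPM (SD, n = 3), followed by the endosomal receptors Tlr7, Tlr13 and Tlr8, then by Tlr1 and Tlr4, then by Tlr6, Tlr9 and Tlr3 near each other, with Tlr5 last. Of the 10 receptors, 9 were detected, and Tlr5 was not. Summed over the 10 receptors, the libraries held 462.9, 400.4 and 421.1 TPM, of which Tlr2 took 49.6%, 55.8% and 55.8%. Tlr2 thus held about as much TPM as the other 9 receptors together, slightly less in replicate 1 and more in replicates 2 and 3.

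**Figure D1:**
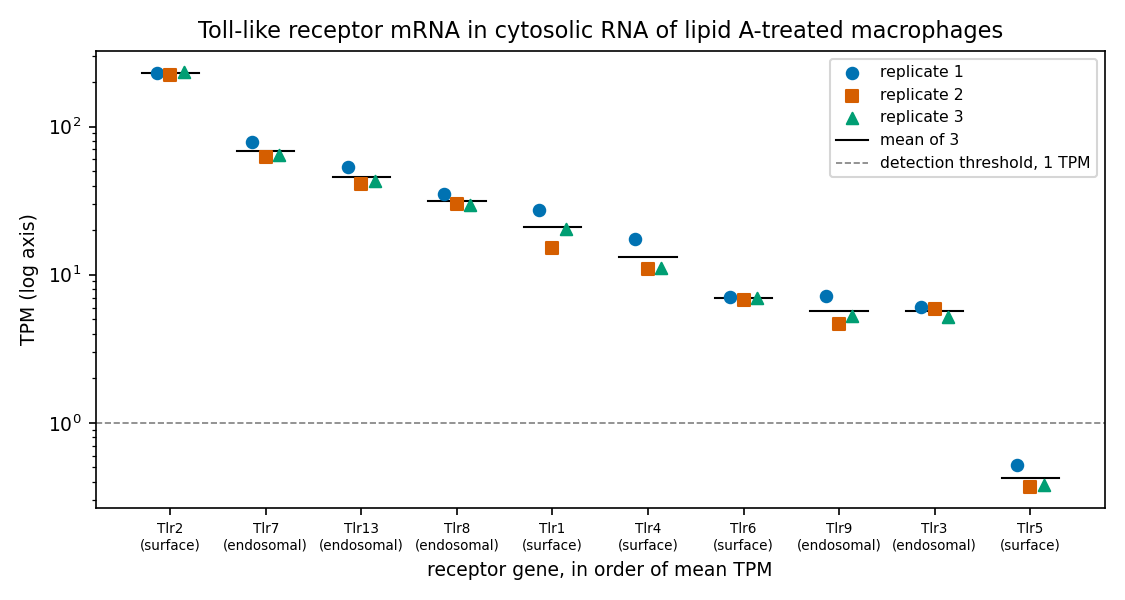
Level of each Toll-like receptor gene in TPM on a log axis, with 1 point per library, a black line at the mean of the 3 libraries and a dashed line at the detection threshold of 1 TPM. Tlr2 lies at 223 to 235 TPM, the next receptor, Tlr7, at 62.2 to 78.6 TPM, and Tlr5 is the only receptor under the dashed line.

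Tlr1 and Tlr6, the dimer partners of Tlr2, need their sequences beside their values, because they are neighbouring paralogs on the minus strand of chromosome 5 and share part of their coding sequence. In GRCm38 (mm10) Tlr1 spans chr5:64924679-64933563 and Tlr6 spans chr5:64952031-64960097. Over the 2385 bases of the Tlr1 coding sequence (Tlr1-201 against Tlr6-201, GENCODE M21) 74.3% were identical. Here and below, Tlr1 bases without an aligned Tlr6 base count as different. Identity was 58.0% over the first 1293 bases, 98.9% over the next 910 and 67.0% over the last 182. The middle stretch holds 9 exact runs of at least 31 bases, 873 bases in all. Among the other 44 pairs of receptor coding sequences the longest exact run was 16 bases. The longest Tlr1 and Tlr6 run, 229 coding bases, is printed first because a read inside it fits both genes equally well. It lies at chr5:64925537-64925765 in Tlr1 and chr5:64953828-64954056 in Tlr6, minus strand.
Tlr1 and Tlr6 shared run: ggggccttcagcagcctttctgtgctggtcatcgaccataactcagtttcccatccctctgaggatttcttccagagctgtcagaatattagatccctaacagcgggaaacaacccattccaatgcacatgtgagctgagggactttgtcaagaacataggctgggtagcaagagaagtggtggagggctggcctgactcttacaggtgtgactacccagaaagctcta
The next pair covers the upstream edge of that run, at chr5:64925737-64925796 for Tlr1 and chr5:64954028-64954087 for Tlr6, and shows the single differing base, in capitals, that separates it from the preceding run. Of the 8 gaps between the 9 runs, 6 are such single bases.
Tlr1 run edge: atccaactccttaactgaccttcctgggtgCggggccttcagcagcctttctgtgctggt
Tlr6 run edge: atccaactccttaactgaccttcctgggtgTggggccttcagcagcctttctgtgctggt
The last pair is the least alike stretch of 60 aligned coding bases, at chr5:64926346-64926405 for Tlr1 and chr5:64954637-64954696 for Tlr6, where 24 bases are identical and the differing ones are in capitals. Reads from such stretches fit only 1 of the genes.
Tlr1 least alike: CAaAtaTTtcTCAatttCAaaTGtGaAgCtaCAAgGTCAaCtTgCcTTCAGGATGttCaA
Tlr6 least alike: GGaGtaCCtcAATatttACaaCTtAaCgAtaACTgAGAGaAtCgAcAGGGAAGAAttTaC

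**Figure D2:**
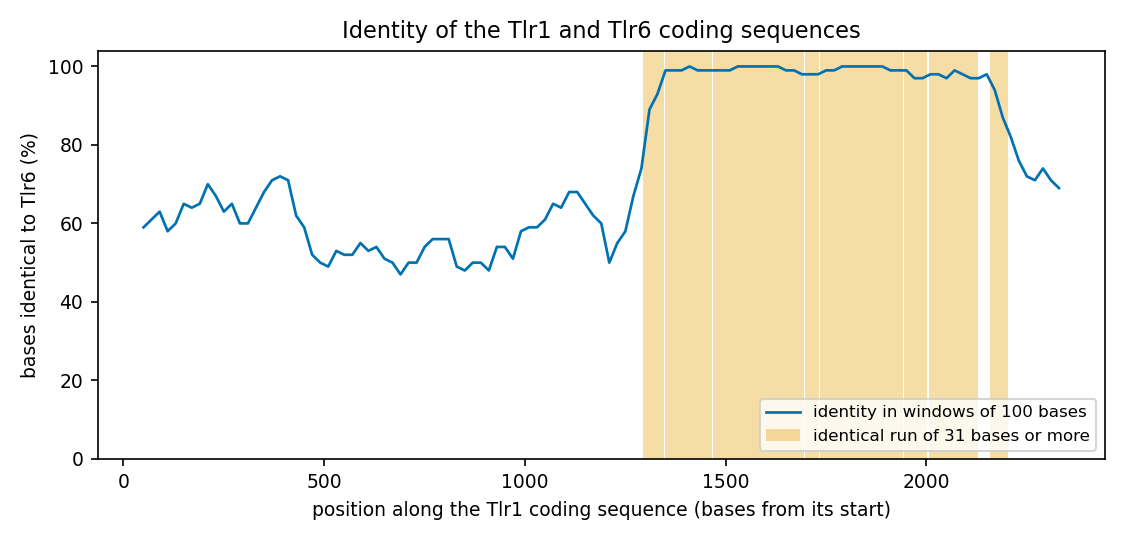
Percent of bases of the Tlr1 coding sequence identical to Tlr6 in windows of 100 bases (line), by position from the start of the coding sequence, with the 9 identical runs of at least 31 bases shaded. Identity is 98.9% over the 910 bases from the first to the last run and 58.0% before them.

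The shared stretch was visible in the deposited counts. Tlr1 had 3706, 8564 and 5673 expected counts and Tlr6 967, 3083 and 1648, and neither gene had whole numbers in the tables. The counts of both genes together were whole: 4673, 11647 and 7321 in replicates 1 to 3. The deposited posterior SD of the count, the uncertainty the authors' model gives to the assignment of reads, was identical for both genes in each library, at 3.88, 7.16 and 4.96 counts. The other 8 receptors had whole counts, within a tolerance of 0.005, and a posterior SD of 0. Over all 12720 genes with at least 10 counts in every library, 69.1% had whole counts in all 3. The reads whose source is uncertain thus moved only between Tlr1 and Tlr6, and the posterior SD is small beside the difference between the genes' counts.

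Of the dimer partners of Tlr2, Tlr1 was the higher in every library. Tlr1 was at 27.4, 15.1 and 20.4 TPM in replicates 1 to 3, a mean of 20.97 ± 6.21 (SD, n = 3), and Tlr6 was at 7.04, 6.77 and 6.99 TPM, a mean of 6.93 ± 0.144 (SD, n = 3). The ranges did not overlap, and Tlr1 spread widely while Tlr6 hardly spread. The log2 ratio of Tlr6 to Tlr1 TPM was -1.96, -1.15 and -1.55, a mean of -1.55 ± 0.40 (SD, n = 3). With 3 libraries an exact two-sided sign test cannot go below p = 0.25, for this and each ratio that follows.

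Tlr2 itself, on chromosome 3 (chr3:83836272-83841767, minus strand), was at 229.8, 223.5 and 235.1 TPM from 35992, 143666 and 74387 counts. It ranked 175 among the 55536 genes and lay above 98.0% of the 8699 genes detected. On TPM the 3 libraries are close together. Tlr2 exceeded Tlr1 8.37, 14.8 and 11.5 times and Tlr6 32.6, 33.0 and 33.6 times. The near-constant ratio to Tlr6 rests on a short Tlr6 transcript: over transcripts with a complete coding sequence only, Tlr2 exceeded Tlr6 47.4, 60.9 and 58.5 times. That alternative was chosen after the values were seen.

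Tlr4, the receptor of lipid A (chr4:66827584-66930284, plus strand), was at 17.5, 10.8 and 11.0 TPM, a mean of 13.1 ± 3.76 (SD, n = 3), from 3728, 9502 and 4777 counts. Replicate 1 was high and replicates 2 and 3 were close to each other. Its range overlapped that of Tlr1, although by TPM Tlr1 was the higher in each library. Tlr2 exceeded Tlr4 13.2, 20.6 and 21.3 times, a log2 ratio of 4.17 ± 0.39 (SD, n = 3). Ly96, which encodes MD-2, was at 22.4, 21.7 and 18.5 TPM, above Tlr4 in every library.

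Tlr5, the receptor of bacterial flagellin (chr1:182954788-182976044, plus strand), was at 0.520, 0.370 and 0.380 TPM. These levels rest on 77, 242 and 106 counts, with exact 95% Poisson intervals of 60.8 to 96.2, 212 to 274 and 86.8 to 128 that cover counting error only. Tlr5 RNA was therefore present in every library but under the detection threshold, 13.6 times below Tlr3, its neighbour in the order. The mouse receptors Tlr11 and Tlr12, which bind profilin of protozoan parasites, were lower still, with 8, 12 and 9 counts and 2, 2 and 5 counts. The exact 95% Poisson intervals reach from 3.45 to 20.96 counts for Tlr11 and from 0.242 to 11.7 for Tlr12 over the libraries.

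Among the endosomal receptors Tlr7, a receptor of single-stranded RNA, was highest. Tlr7 (chrX:167304929-167330558, minus strand) was at 78.6, 62.2 and 64.3 TPM, a mean of 68.4 ± 8.90 (SD, n = 3). Its paralog and neighbour Tlr8 (chrX:167242696-167264329, minus strand), which also senses RNA breakdown products, was at 35.2, 29.9 and 29.5 TPM, a mean of 31.5 ± 3.17 (SD, n = 3). Both genes were highest in replicate 1, and the ranges did not overlap. The log2 ratio of Tlr7 to Tlr8 TPM was 1.16, 1.06 and 1.12, a mean of 1.11 ± 0.05 (SD, n = 3). Their coding sequences share no run of 31 bases, and both had whole counts.

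Tlr13, a receptor of bacterial 23S ribosomal RNA, was the third highest receptor. Tlr13 (chrX:106143204-106160493, plus strand) was at 53.7, 41.2 and 42.9 TPM, a mean of 45.9 ± 6.74 (SD, n = 3). Tlr9, the receptor of unmethylated CpG DNA (chr9:106222598-106226883, plus strand), was at 7.18, 4.67 and 5.30 TPM, a mean of 5.72 ± 1.31 (SD, n = 3). The ranges were far apart, with Tlr13 exceeding Tlr9 7.47, 8.83 and 8.10 times, a log2 ratio of 3.02 ± 0.12 (SD, n = 3). Tlr3, the receptor of double-stranded RNA (chr8:45395665-45411080, minus strand), was at 6.08, 5.84 and 5.21 TPM, a mean of 5.71 ± 0.449 (SD, n = 3). Tlr3 and Tlr9 had overlapping ranges and nearly the same mean. An antisense gene, Gm45542, overlaps the start of Tlr3 and shares 87 of the 4377 31-base words of Tlr3-201, or 1.99%. Gm45542 was listed at 0 counts in every library, and since the strand setting is not given in the sources used here, reads of the overlap cannot be told apart by strand.

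Read as an order by TPM, 6 of the 9 neighbouring pairs had ranges that did not overlap. From high to low, these are the steps from Tlr2 to Tlr7, 3.37 times on average, from Tlr7 to Tlr13 (1.49 times), from Tlr13 to Tlr8 (1.45 times), from Tlr8 to Tlr1 (1.54 times), from Tlr4 to Tlr6 (1.84 times) and from Tlr3 to Tlr5. The ranges overlapped for Tlr1 and Tlr4, Tlr6 and Tlr9, and Tlr9 and Tlr3. Within libraries, Tlr1 was nevertheless above Tlr4 in 3 of 3 by TPM, with a log2 ratio of 0.67 ± 0.21 (SD, n = 3). The order changed between libraries for Tlr6 and Tlr9 (0.30 ± 0.29) and for Tlr9 and Tlr3 (-0.02 ± 0.28), the first gene of each pair being higher in 2 of 3 libraries. The step from Tlr8 to Tlr1 rests on 29.5 TPM in the lowest Tlr8 library against 27.4 in the highest Tlr1 library. Over complete coding transcripts only, an alternative chosen after the values were seen, that pair overlapped (23.6 against 24.9 TPM). Tlr7 and Tlr13 overlapped there as well, at 61.0, 46.2 and 48.4 against 53.3, 41.15 and 42.9 TPM. Within each library the order of both pairs stayed the same. Without correction for length, on CPM (counts scaled to TMM effective library sizes), Tlr1 and Tlr4 had means of 96.1 ± 17.7 and 94.2 ± 18.4, and Tlr9, Tlr3 and Tlr6 of 35.2 ± 4.63, 30.2 ± 5.10 and 28.6 ± 1.13 (SD, n = 3 each). The CPM ranges of Tlr1 and Tlr4 overlapped, and so did those of Tlr3 with Tlr9 and with Tlr6, while those of Tlr9 and Tlr6 did not.

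Summed by location, the 5 surface receptors held 282, 257 and 274 TPM and the 5 endosomal receptors 181, 144 and 147 TPM. The log2 ratio of surface to endosomal TPM was 0.64, 0.83 and 0.90, a mean of 0.79 ± 0.13 (SD, n = 3), above 0 in 3 of 3 libraries. That excess rested on Tlr2. Without Tlr2 the surface receptors held 52.5, 33.0 and 38.8 TPM, and the log2 ratio turned to -1.94 ± 0.17 (SD, n = 3), below 0 in 3 of 3 libraries. In the cytosolic RNA, endosomal receptors other than Tlr9 and Tlr3 were thus each higher than every surface receptor except Tlr2.

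Whether the receptors differed between the 3 libraries by more than counting error was tested for every gene with at least 10 counts on average. The Poisson dispersion test on TMM-scaled counts from edgeR called 8 of the 10 receptors at a Benjamini-Hochberg adjusted p under 0.05. Of all 14037 genes tested, 64.1% were called. Power grows with counts, and among the 5939 genes with at least 1000 counts on average 85.1% were called, against 8 of the 9 receptors there. The share of receptors called is therefore near that of all genes as deeply counted. Tlr2, the receptor with the most counts, had the largest chi-square of the 10, 925, at 1110, 1323 and 1245 CPM. The receptors not called were Tlr5, at 2.37, 2.23 and 1.77 CPM and an adjusted p = 0.118 in the edgeR-scaled dispersion test, and Tlr6, at 29.8, 28.4 and 27.6 CPM and an adjusted p = 0.207 in the same test. Over the other settings of this test, listed with the processing, the adjusted p ranged from 0.0222 to 0.755 for Tlr5 and from 0.000995 to 0.465 for Tlr6, and Tlr5 was under 0.05 with the second quantification and Tlr6 with it and with total expected counts. Tlr9 was not called without replicate 1, with an adjusted p = 0.686, and Tlr3 was not called without replicate 2, with an adjusted p = 0.0651, the highest over the settings for both genes. The biological coefficient of variation from edgeR was 0.0954 for Tlr8, the lowest, 0.152 for Tlr1, 0.153 for Tlr4 and 0.253 for Tlr5, the highest, beside 0.216 as the common value of all genes tested. The edgeR trend, fitted for genes of like abundance, was 0.116 for Tlr8, 0.113 for Tlr1 and for Tlr4 and 0.309 for Tlr5. Tlr1, Tlr4, Tlr3 and Tlr9 thus lay above their trend, and Tlr8, Tlr5, Tlr2, Tlr6, Tlr7 and Tlr13 below it.

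Replicate 1 was the high library for most receptors. By TPM, 9 of the 10 receptors were highest in replicate 1, the exception being Tlr2, which was highest in replicate 3. The same held in part for other genes: among 9148 genes whose mean reached 1 TPM, 63.1% were highest in replicate 1. As log2 of replicate 1 over the mean of replicates 2 and 3, the median of 8584 nuclear-encoded protein-coding genes was 0.15. Tlr4 was at 0.67, Tlr1 at 0.63, Tlr9 at 0.53 and Tlr5 at 0.47, above 97.2%, 96.6%, 93.9% and 91.5% of those genes. Tlr13 was at 0.35, Tlr7 at 0.31 and Tlr8 at 0.24, while Tlr3 at 0.14, Tlr6 at 0.03 and Tlr2 at 0.00 lay under the median.

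The scale matters for the weaker of these deviations. On CPM with TMM effective library sizes, where the coding-gene median was -0.06, 7 receptors were highest in replicate 1 and Tlr2, Tlr3 and Tlr8 in replicate 2. Tlr4 at 0.46, Tlr1 at 0.39, Tlr9 at 0.32 and Tlr5 at 0.25 still lay above 97.6%, 96.7%, 94.9% and 91.8% of coding genes. Tlr2, at -0.21, was lowest in replicate 1 on that scale, and so its small TPM spread of 2.54% (coefficient of variation) became 8.80%. Tlr6, at 0.09, lay above 77.9% of coding genes on CPM but above 29.7% on TPM. Tlr3 went the other way, with 28.7, 35.9 and 26.1 CPM, highest in replicate 2. Replicate 1 also had the fewest counts and the largest mitochondrial share, and Malat1, a nuclear RNA, was at 741, 178 and 812 TPM in replicates 1 to 3. The part of depth, mitochondrial share or nuclear RNA in the receptors' deviations was not tested.

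**Figure D3:**
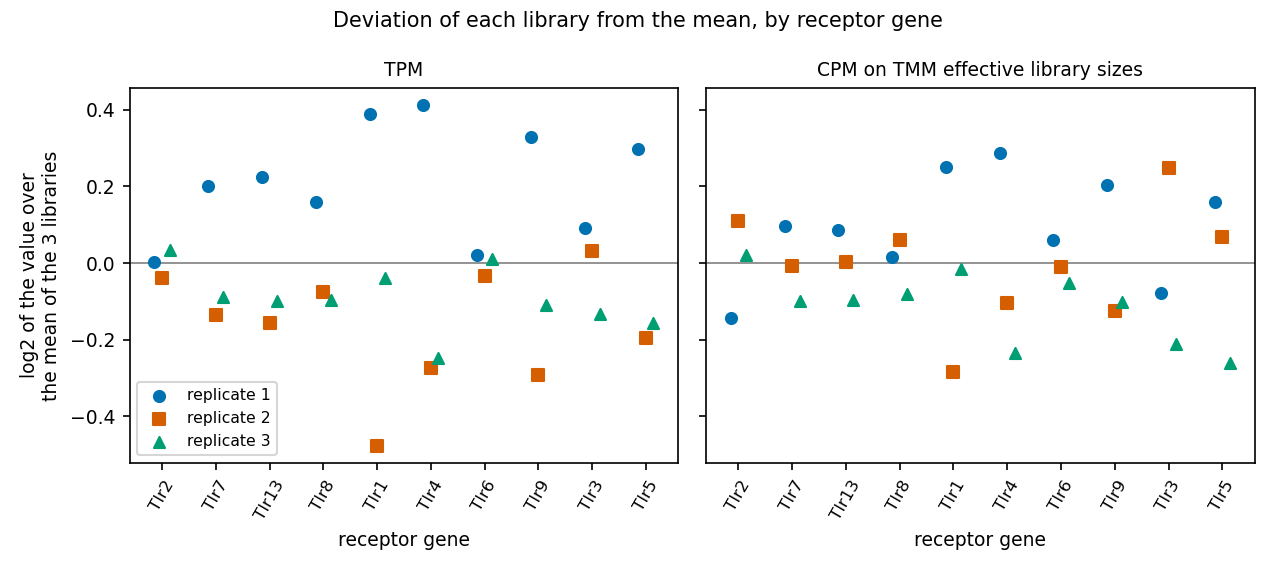
Log2 of each library's value over the mean of the 3 libraries for the 10 receptors, in TPM (left) and in CPM on TMM effective library sizes (right), with 1 symbol per replicate. In both panels replicate 1 is the highest library for Tlr1, Tlr4, Tlr5, Tlr6, Tlr7, Tlr9 and Tlr13, and Tlr2 changes from a near-flat pattern to its lowest value in replicate 1.

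The receptors also differed in how their RNA was divided among annotated transcripts. Of the 38 transcripts, 16 carry a complete coding sequence in the consensus set CCDS, 11 have another, mostly partial, coding sequence and 11 have none. Tlr2 and Tlr9 have 1 transcript each. The complete coding class took 99.7% ± 0.300 of the TPM of Tlr13, 98.7% ± 0.202 of Tlr4, 92.1% ± 1.19 of Tlr1 and 86.0% ± 7.84 of Tlr5 (SD, n = 3 each). It took 80.4% of Tlr8 TPM, 75.7% of Tlr7, 60.2% of Tlr6 and 55.2% of Tlr3. These shares are estimates of the authors' model, and short transcripts gain TPM from few reads. In the second quantification the class took 88.8% ± 4.24 of Tlr4, 86.6% ± 1.36 of Tlr1 and 67.0% ± 6.13 of Tlr5 (SD, n = 3 each). There it took 99.2% of Tlr13, 73.0% of Tlr7, 68.4% of Tlr8, 57.7% of Tlr3 and 50.5% of Tlr6. The SD over libraries does not cover this difference between quantifications.

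**Figure D4:**
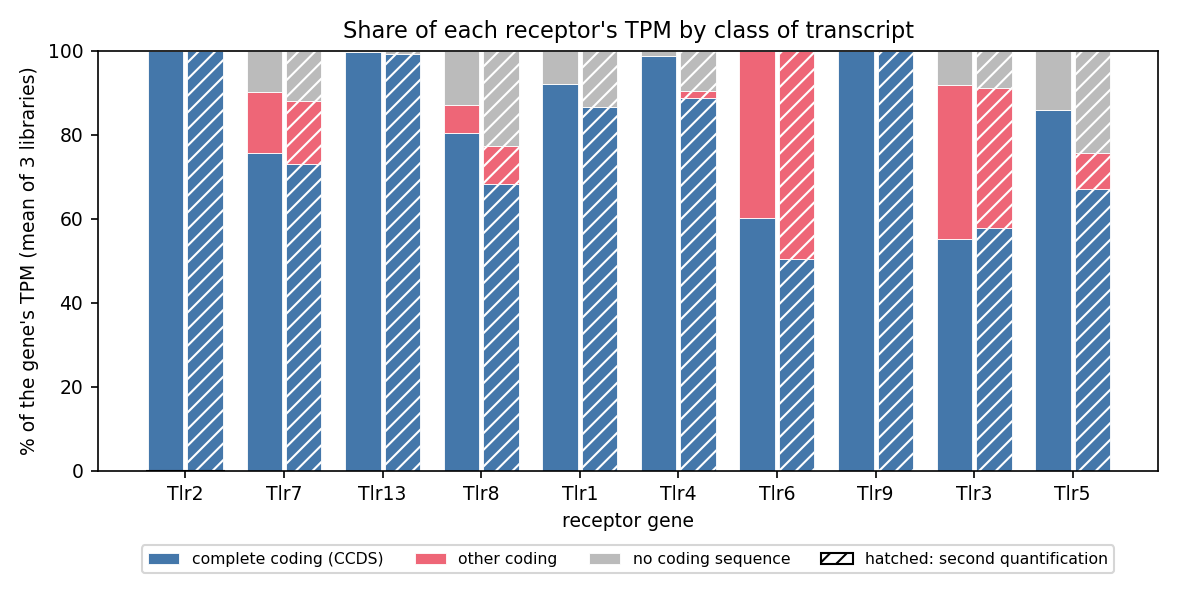
Mean percent of each receptor's TPM over 3 libraries in transcripts with a complete coding sequence (blue), another coding sequence (red) or none (grey), with plain bars for the gene-table quantification and hatched bars for the second deposited quantification. Tlr2 and Tlr9 are wholly blue, and Tlr6 and Tlr3 have the lowest blue shares, 60.2% and 55.2% in the plain bars.

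Tlr6 shows how far this reaches. Its 446-base transcript Tlr6-202, with an incomplete coding sequence, took 31.1%, 45.8% and 42.5% of Tlr6 TPM but 2.73%, 5.39% and 4.52% of Tlr6 counts (26.4, 166 and 74.5 counts). The full-length Tlr6-201, of 3677 bases, had 941, 2917 and 1573 counts and 4.85, 3.67 and 4.02 TPM. Counted by the complete coding transcript alone, Tlr6 was at 4.18 ± 0.606 TPM (SD, n = 3), below Tlr9 at 5.72, with a coefficient of variation of 14.5% in place of 2.07%. Both the place of Tlr6 above Tlr9 and its very small spread in TPM therefore depend on the short transcript. On CPM, which uses all Tlr6 counts, the coefficient of variation was 3.97%, so the spread was small on counts as well.

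Tlr1 is annotated with alternative starts, and the split of its reads between them is a model estimate. Tlr1-201 starts at 64932761 and Tlr1-202 upstream at 64933561 on the minus strand of chromosome 5, and they took 63.6% ± 0.911 and 28.5% of Tlr1 TPM. The shares were alike in all libraries, with 63.5%, 62.7% and 64.5% for Tlr1-201, and in the second quantification the means were 55.9% and 30.7%. Tlr3 was less even. Its transcript Tlr3-205 took 8.39%, 25% and 5.37% of Tlr3 TPM, high in replicate 2, on 111, 1300 and 124 counts. Tlr3-201 took 41.9%, 35.1% and 44.5%. In the second quantification Tlr3-205 was the leading transcript with a mean of 31.4%, and it was again highest in replicate 2.

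For Tlr7 and Tlr8 the split among complete coding transcripts depended on the quantification. Tlr8-202 took 49.5% and Tlr8-201 30.9% of Tlr8 TPM on average, but in the second quantification Tlr8-201 had 0% in every library and Tlr8-202 68.4%. Tlr7-201 and Tlr7-202 took 60.3% and 11.5% of Tlr7 TPM, and 41.2% and 26.4% in the second quantification. The sums over complete coding transcripts moved less than these splits, as the hatched and plain bars of transcript classes show. No statement on which Tlr8 start was used can be made from these files.

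The genes that serve the receptors were read from a list of 41 matched genes sorted by role, of which 34 were detected and 31 of the 38 tested varied beyond counting error in the dispersion test, against 64.1% of all genes tested and 85.1% of those with at least 1000 counts on average. A further symbol, Triad3, had no match in the annotation, being an alias of Rnf216, which is among the 41. Among 6 accessory proteins on the receptor side, 5 were detected. Cd14, which passes lipopolysaccharide to TLR4 and MD-2, was highest at 437, 583 and 551 TPM, followed by Cd180, a TLR-like protein of the lipopolysaccharide response, at 127, 115 and 112 TPM. Cd36, a scavenger receptor that assists TLR2 with TLR6, was at 72.2, 79.8 and 103 TPM. Lbp, the serum lipopolysaccharide-binding protein made mainly by liver, was lowest at 0.450, 0.240 and 0.540 TPM. Cd14 thus stood above every receptor gene in each library, and was lowest in replicate 1, where 9 of the 10 receptors were highest.

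All 9 chaperones and handling genes were detected. Slc15a3, an endolysosomal transporter, was at 148 ± 8.71 TPM, Unc93b1, which carries endosomal receptors out of the endoplasmic reticulum, at 126 ± 7.78, and Hsp90b1, the chaperone gp96 that folds most Toll-like receptors, at 106 ± 14.3 (SD, n = 3 each). The lowest was Cnpy4 at 2.44 ± 0.470 TPM. Of 6 proteases listed as cutting receptor ectodomains, 5 were detected, led by Ctsb at 2063 ± 69.3, Ctss at 732 ± 85.7 and Lgmn at 435 ± 19.6 TPM (SD, n = 3 each). Ctsk was lowest at 0.663 ± 0.162 TPM. Unc93b1, like Slc15a3 and Hsp90b1, exceeded each endosomal receptor in every library, at 134, 119 and 125 TPM against 78.6, 62.2 and 64.3 for Tlr7.

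The adaptors differed in level. Of 6, 5 were detected: Pik3ap1, which links receptors to phosphoinositide 3-kinase, was highest at 109 ± 11.4 TPM, Myd88, the adaptor of most Toll-like receptors, was at 33.7 ± 2.09, and Ticam1, which encodes the adaptor TRIF of TLR3 and TLR4, at 8.96 ± 1.97 (SD, n = 3 each). Sarm1 was lowest, at 4, 8 and 3 counts. All 7 proximal kinases and ligases were detected, with Irak2 at 28.5 ± 3.57, Tbk1 at 18.2 ± 2.45, Irak1 at 10.9 ± 1.20 and Irak4 lowest at 4.90 ± 0.462 TPM (SD, n = 3 each). Of 5 matched inhibitors of receptor signalling, 3 were detected, which were Tollip at 26.2 ± 1.68, Tmed7 at 22.8 ± 2.72 and Rnf216 at 3.86 ± 0.597 TPM, and Il1rl1 was lowest at 0.0533 ± 0.0321 TPM (SD, n = 3 each). The median level was 17.0 TPM for the 10 receptors, 20.9 for the 41 pathway genes and 6.79 for all detected genes.

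**Figure D5:**
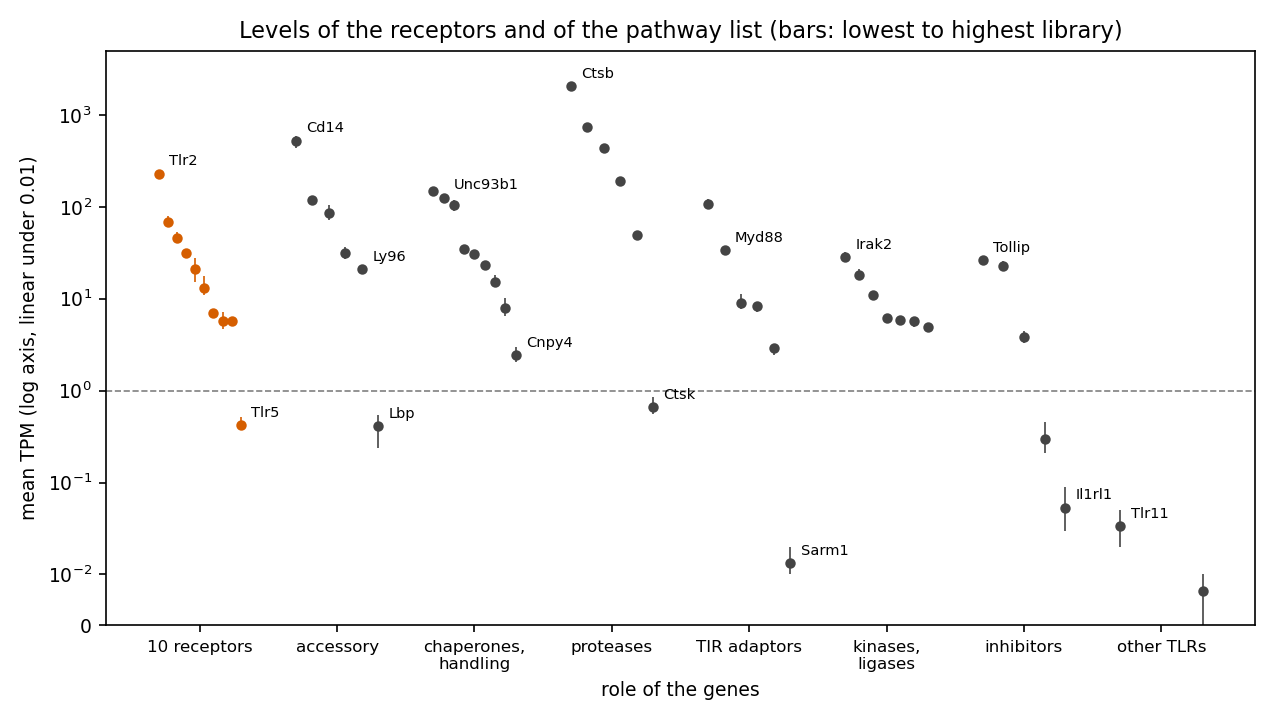
Mean TPM of the 10 receptors (orange) and of the pathway genes by role (grey), on a log axis that is linear under 0.01, with bars from the lowest to the highest library and a dashed line at the detection threshold of 1 TPM. Ctsb at 2063 TPM and Cd14 at 524 TPM lie above Tlr2, and all chaperones and all proximal kinases and ligases lie above the dashed line.

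By Euclidean distance of log2(TPM + 1) over the 3 libraries, a likeness of level only, the pathway genes nearest to Tlr4 were Cnpy3 (distance 0.43), Irak1 (0.54) and Tbk1 (0.85). Cnpy3, a chaperone of Toll-like receptors, was at 18.1, 13.95 and 13.5 TPM, high in replicate 1 as Tlr4 was. Nearest to Tlr2 were Ctsl (0.50), Slc15a3 (1.09) and Unc93b1 (1.5), all below it. Ctsl, a lysosomal protease, was at 175, 191 and 204 TPM and lowest in replicate 1.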

How the data were processed

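Cytosolic RNA of 3 libraries, depleted of ribosomal RNA, was analysed from the deposited gene and transcript tables, which the text listings beside them tie to mm10 and GENCODE M21. The aligner and the handling of strand were not given in the sources used here. In these tables the authors deposited expected counts, TPM and FPKM per gene and transcript, each transcript's percent of its gene's TPM, and a second table of estimated counts and TPM per transcript (the second quantification, summed here per gene). Per the file headers, the tables also give a posterior SD of the count, treated as a signal. TPM keeps no depth, so depth was taken from the expected counts.

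The receptors, ratios and gene lists were chosen with earlier results of these data known. The genes named are all 10 receptors, the 3 highest and the lowest gene of each role, 3 genes nearest to Tlr4 and to Tlr2, and Ly96, whose values, like those of the transcripts and libraries singled out, were seen before it was named. Expected counts were rounded to whole numbers. TMM effective library sizes and the biological coefficient of variation came from edgeR 4.0.16 in R 4.3.3 (intercept only, mean count of at least 10). The spread between libraries was tested with a Poisson dispersion test (chi-square, 2 degrees of freedom) with Benjamini-Hochberg adjustment over 14037 genes at 0.05. Of genes simulated with a 1.25, 1.5, 2 or 3 fold change in a library, 48%, 74%, 76% and 98% were recovered, with 16 false calls among the unchanged genes of 14037 simulated. Apart from those changes the simulated counts were Poisson, while 64.1% of the genes tested here varied beyond counting error. The false calls thus describe the simulation only. The rest used Python 3.11.15 with scipy 1.17.1, pandas 2.3.3 and numpy 2.4.6. Coding sequences were read from the GENCODE M21 transcripts. Alternatives were other thresholds and scales (FPKM, TPM rescaled to coding genes), DESeq2 1.42.0 size factors, the second quantification, each library left out, and complete coding transcripts only. Protein sequences were not used here. A further macrophage marker of the list is not reported here.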

Additional observations from a re-analysis of the deposited data

How the results depend on the processing

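The count of detected receptors stayed between 8 and 10 under its alternatives, with 10 when TPM was rescaled to nuclear-encoded protein-coding genes, which brings Tlr5 over 1, and 8 at a threshold of 5 TPM. The count of receptors varying beyond counting error was 9 with total expected counts, 10 with the second quantification and 7 to 8 with 1 library left out. Without replicate 1 Tlr9 was no longer called, and without replicate 2 Tlr3 was not. The log2 ratios of surface to endosomal, Tlr6 to Tlr1, Tlr7 to Tlr8, Tlr2 to Tlr4 and Tlr13 to Tlr9 did not change sign. The log2 ratio of Tlr7 to Tlr8 became 0.89 with the second quantification, 1.21 in expected counts and 1.03 over complete coding transcripts, an alternative chosen after seeing the data. Over those transcripts the surface to endosomal ratio became 1.02 and Tlr6 to Tlr1 became -2.18. In expected counts, Tlr2 to Tlr4 became 3.72 and Tlr13 to Tlr9 became 3.25, and the latter was 2.81 on log2(TPM + 1). In the order, 2 receptors took another place with the second quantification, 5 in expected counts, 2 over complete coding transcripts and 0 to 2 with 1 library left out. Those were Tlr9 and Tlr3, except over complete coding transcripts, where they were Tlr6 and Tlr9, and in expected counts, where they were Tlr1, Tlr4, Tlr6, Tlr9 and Tlr3. Those means are not scaled for depth and weigh replicate 2 most. On depth-scaled CPM the mean of Tlr1 (96.1) was slightly above that of Tlr4 (94.2), well within their spread. By library, Tlr4 was the higher in replicates 1 and 2 and Tlr1 in replicate 3, in counts as on CPM. The leading transcript was the same in 9 of 10 receptors with the second quantification, the exception being Tlr3. No paired analysis was possible because there is 1 group of libraries. TPM of the 2 quantifications have different totals, so levels were compared only within each.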
